A study of Mus musculus with 8 samples.

Results

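Replicate 1 of this series consists of 2 RNA libraries, 1 of cells given the solvent DMSO and 1 of cells given C28, and it was set against the 4 libraries of replicates 2 and 3, again with DMSO and C28. These 6 RNA libraries were taken out of 8 samples in all. The members were chosen by their replicate number, and that number was picked because earlier results of these data had shown replicate 1 apart. Both arms were kept in each group, with treatment as a covariate. The comparison thus describes a difference between replicate numbers averaged over DMSO and C28 and not the effect of the compound.

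All samples are mouse cells of C57BL/6 background, labelled as female germline stem cells. The control group received DMSO, and the treated group received C28, named 028 in the sample names, for 3 h. No transgene, age or passage is given in the labels, and they do not say whether a replicate number stands for a separate culture, line or day. The p-values below are therefore set against differences among these libraries alone, part of which may be technical, and the libraries of replicate 1 share a number, so that they stand for 1 replicate number against 2.

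The label was checked against marker genes. Of 5 germline markers, Pou5f1 and Dppa3 had no reads in any library, and 4 of the 5 averaged under 1 in normalised value; the remaining one, Ifitm3, is also an interferon-induced gene. In a longer list of 22 germline stem cell genes, 12 averaged under 1 and 11 were tested. Of these, 1 was called higher (9.09%, against 9.50% of all tested genes) and 3 lower (27.3%, against 10.1%). Some of them had clear levels in every library: the transcription factor gene Etv5 held 1410 and 1201 in replicate 1 and 1675 to 1857 in the others, Tex14, a gene of germ cell bridges, held 491 to 582 over all 6, and Piwil2, a Piwi family gene, held 69.8 to 96.6. The 1 member called higher was Zbtb16, which encodes PLZF, at 74.8 and 39.4 in replicate 1 against 7.20 to 18.1. Of 18 mast cell markers, 12 averaged at least 10, among them the stem cell factor receptor Kit and the transcription factor Gata2, while Fcer1a and Tpsb2 had no reads. The libraries are described below by these genes and not by the labelled cell type. The summed mast cell markers ranged from 61547 to 67328 in replicate 1 and from 61219 to 65973 in replicates 2 and 3, so the groups overlapped on that sum. It is mostly Kit and Gata2, and markers at low levels such as Hdc and Cma1 hardly move it. Fewer cells of a type and less RNA per cell cannot be told apart in bulk libraries such as these.

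Mast cells are tissue cells of the blood lineage that store histamine, serotonin, serglycin proteoglycan and proteases in granules. They depend on stem cell factor, which acts through Kit, and they respond to IgE, interleukin 33 and other cytokines by releasing granules and making lipid mediators and cytokines such as interleukin 13. Cultured mast cells differ in which proteases, amines and receptors they carry, depending on their origin and the cytokines they grow in, and early cells express genes that basophils share.

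The difference is described first by 5 marker genes: Gzmb and Il9r, higher in replicate 1, and Hdc, Il13 and Il1rl1, lower. The 250 bases upstream of each annotated start are printed because GATA and RUNX factors are known regulators of mast cell genes. They come from the RefSeq table for GRCm38.p6, matched by symbol, and are written 5′ to 3′ on the strand of the gene. Capitals mark GATA words, which are AGATA or else TGATA followed by A or G, on either strand. They also mark RUNX words on either strand, which read TGTGGT or, with a C in the third place, TGCGGT.

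Hdc promoter, minus strand, chr2:126618679-126618928: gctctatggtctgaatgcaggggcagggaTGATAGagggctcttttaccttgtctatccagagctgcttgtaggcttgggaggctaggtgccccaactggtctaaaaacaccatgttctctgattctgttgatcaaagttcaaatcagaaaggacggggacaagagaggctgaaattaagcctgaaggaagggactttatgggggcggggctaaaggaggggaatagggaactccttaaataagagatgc
Gzmb promoter, minus strand, chr14:56262335-56262584: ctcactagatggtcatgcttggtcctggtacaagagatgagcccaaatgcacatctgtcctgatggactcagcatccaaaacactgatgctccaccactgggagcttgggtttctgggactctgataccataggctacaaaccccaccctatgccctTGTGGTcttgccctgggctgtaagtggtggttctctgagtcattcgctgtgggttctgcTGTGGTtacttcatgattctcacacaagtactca
Il9r promoter, minus strand, chr11:32200280-32200529: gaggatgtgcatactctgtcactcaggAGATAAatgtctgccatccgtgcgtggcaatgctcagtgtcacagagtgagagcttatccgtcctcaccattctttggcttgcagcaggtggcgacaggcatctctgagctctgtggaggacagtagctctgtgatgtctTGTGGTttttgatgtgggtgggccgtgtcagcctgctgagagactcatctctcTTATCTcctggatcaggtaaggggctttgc
Il13 promoter, minus strand, chr11:53634703-53634952: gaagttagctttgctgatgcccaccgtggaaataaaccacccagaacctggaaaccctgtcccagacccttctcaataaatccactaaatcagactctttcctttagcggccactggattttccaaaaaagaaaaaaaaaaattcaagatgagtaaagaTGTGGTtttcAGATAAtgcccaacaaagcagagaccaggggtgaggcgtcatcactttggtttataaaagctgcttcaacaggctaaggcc
Il1rl1 start 1 promoter, plus strand, chr1:40429320-40429569: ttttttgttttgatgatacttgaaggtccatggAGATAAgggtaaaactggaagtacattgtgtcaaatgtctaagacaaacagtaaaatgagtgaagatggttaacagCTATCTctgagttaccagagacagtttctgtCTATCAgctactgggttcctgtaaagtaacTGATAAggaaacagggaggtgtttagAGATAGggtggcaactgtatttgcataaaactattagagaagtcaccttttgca
Il1rl1 start 2 promoter, plus strand, chr1:40439379-40439628: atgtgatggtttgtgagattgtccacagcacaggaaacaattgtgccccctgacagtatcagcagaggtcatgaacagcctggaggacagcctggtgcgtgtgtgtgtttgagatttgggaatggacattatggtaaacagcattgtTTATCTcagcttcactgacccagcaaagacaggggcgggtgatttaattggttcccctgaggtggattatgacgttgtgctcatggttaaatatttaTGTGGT

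The window at start 1 of Il1rl1 held 5 GATA words and no RUNX word, that at start 2 held 1 of each, Il9r held 2 GATA words and 1 RUNX word, and Gzmb held 2 RUNX words and no GATA word. Hdc held 1 GATA word and no RUNX word, and Il13 held 1 of each. The same GATA words occurred in 27.1% of 27025 windows of this length, 1 per gene, and in 17.8% of the 11761 windows of tested genes. They occurred in 28.2% of 188 windows of genes at least 2-fold higher in replicate 1 and in 27.1% of 340 windows of genes at least 2-fold lower. RUNX words were found in 20.2% of the higher and 15.3% of the lower group, against 17.8% of tested genes. The AP-1 word TGANTCA, also searched on both strands and present once in the Gzmb window in lower case, was found in 5.85% of the higher and 9.41% of the lower group, against 4.7% of tested genes. The EGR word GCGNGGGCG was found in 9.57% and 6.76%, against 8.33%. A match describes letters in a window and not a site in use, and the RNA values do not separate the 2 starts of Il1rl1.

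The expression table held values normalised by 1 factor per library, from which whole reads could be recovered. The libraries held between 16930212 and 19197376 reads on genes, and 19940 to 20302 genes had at least 1 read. Mitochondrially encoded genes took 3.26% and 3.22% of the reads in replicate 1 and 2.78% to 3.05% in the others, so the groups did not overlap. Of 13 such genes 3 were called higher, and 0 without the C28 library of replicate 1 or without replicate 3, 2 without the C28 library of replicate 2 and 1 without any other single library or without replicate 2. The part of that share in the other results was not tested. As a list, the 13 genes had 23.1% called higher, against 9.50% of all tested genes. Over 10578 genes with a mean of at least 50, replicates 2 and 3 of the same treatment differed by a root mean square of 0.199 (DMSO) and 0.208 (C28) on the log2 scale. DMSO and C28 libraries of the same number differed by 0.304 in replicate 1, 0.253 in replicate 2 and 0.238 in replicate 3. Replicate 1 lay 0.457 to 0.485 from the libraries of replicates 2 and 3 with the same treatment, about the same distance in both arms. The first principal component held 66.2% of the variance and set replicate 1 apart, and the second held 18.1% and separated C28 from DMSO.

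**Figure D1:**
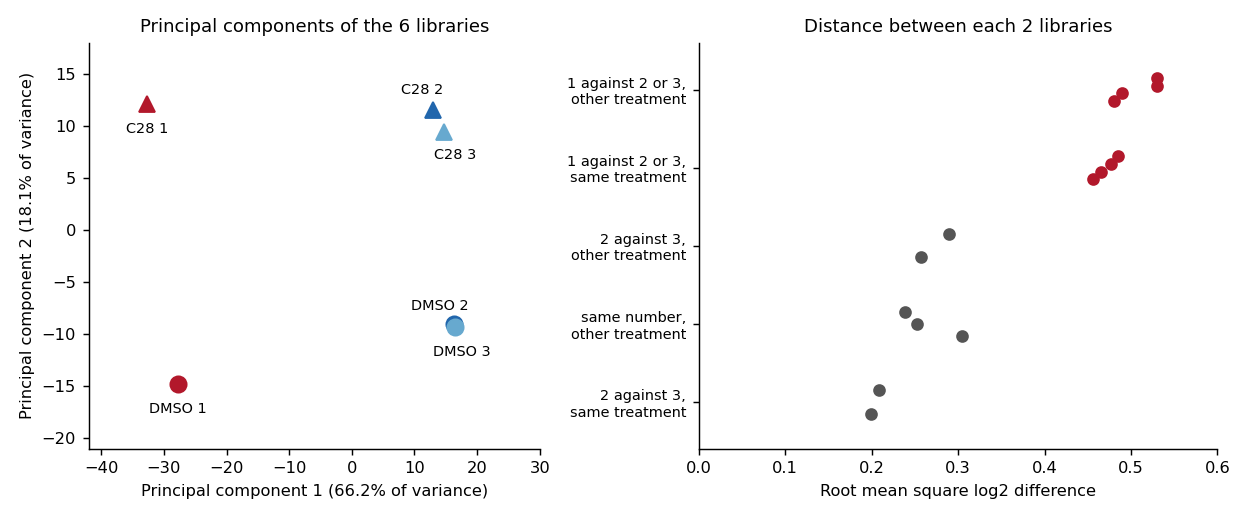
Left, the first 2 principal components of the 6 RNA libraries over 10578 genes (arbitrary units; circles DMSO, triangles C28, numbers are replicate numbers). Right, the root mean square log2 difference between each 2 libraries, grouped by kind of pair; every pair with replicate 1 and another number lies at 0.457 or above, and all other pairs at 0.304 or below.

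Expression differed at 3734 of 19087 tested genes, which is 19.6% of them (limma with Benjamini-Hochberg adjustment, threshold 0.05). Of these, 1814 genes (9.50%) were higher in replicate 1 and 1920 (10.1%) were lower. Most differences were small, with a median fold of 1.35 for the higher genes and 0.734 for the lower genes. A fitted difference of at least 2-fold was reached by 785 genes (4.11%), of which 285 (1.49%) were higher and 500 (2.62%) lower, and at least 8-fold by 17 higher and 52 lower genes. These splits lean to the lower side through the filter, a value of 1 in at least 3 of the 6 libraries. It bars genes present only in replicate 1 and admits those present only in replicates 2 and 3. With no filter, 324 genes were at least 2-fold higher and 459 lower. Both libraries of replicate 1 lay above or below all 4 others at 6479 genes (33.9%). The median difference over all tested genes was -0.01 on the log2 scale, and the median absolute difference was 0.25, against 0.14 between replicates 3 and 2. Calls were more frequent at higher levels, with 30.4% of the 10578 genes with a mean of at least 50 called, 15.3% higher and 15.1% lower. Counts of list members below are to be read against 9.50% higher and 10.1% lower over all tested genes, or 15.3% and 15.1% at that level.

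The count depended on single libraries and replicate numbers. Without its C28 library, limma called 961 genes, and without its DMSO library 2136. It was 2383 without the C28 library of replicate 3, 1742 without replicate 2 and 2144 without replicate 3, and 2675 to 3138 without any other single library. Fitted within 1 arm, where a single library stands against 2, limma called 0 genes in either arm, with 3501 genes at an unadjusted p under 0.05 in DMSO and 4155 in C28. Named genes below that are given without remark kept their call whichever single library or replicate number was left out, and for the others the highest adjusted p is given. Counts of list members are followed by the counts without the C28 and without the DMSO library of replicate 1 where these moved them by over 1.5 times.

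The 5 markers, chosen with earlier results of these data known, separated the groups with no overlap. Their p-values are a description and not independent support for the difference. Gzmb, which encodes granzyme B, a serine protease of cytotoxic granules also made by some mast cells, stood at 797 (DMSO) and 729 (C28) in replicate 1. It stood at 89.4, 67, 63.3 and 57.6 in the DMSO libraries of replicates 2 and 3 and the C28 libraries of replicates 2 and 3, the order kept for 4 values below, so every library of replicate 1 was far above the rest. The difference was 3.46 ± 0.15 on the log2 scale (SE; limma adjusted p = 8.37e-08). Il9r, the receptor for the mast cell growth factor interleukin 9, stood at 1265 and 1170 in replicate 1. The other libraries held 562, 493, 473 and 468, and replicate 1 was 2.44-fold higher (log2 difference 1.29 ± 0.08, limma adjusted p = 7.95e-07).

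Hdc encodes histidine decarboxylase, the enzyme that makes histamine. It was almost absent from replicate 1, at 1.87 and 2.08, and stood at 112, 97.6, 113 and 117 in the others. That is 4 reads in the 2 libraries of replicate 1 and 439 in the other 4, a rate 55.6-fold lower with a 95% exact interval of 21.5 to 205 that covers counting error only. The log2 difference was -5.22 ± 0.25 (limma adjusted p = 2.27e-07).

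Il13, which encodes the type 2 cytokine interleukin 13, held 90.7 and 95.5 in replicate 1. Values of 867, 610, 782 and 524 in the other libraries were all higher, and the log2 difference was -2.86 ± 0.17 (limma adjusted p = 7.95e-07). Il1rl1 encodes ST2, the receptor for interleukin 33. It held 1744 and 1849 in replicate 1 against 4632, 5467, 4754 and 5622, a 2.85-fold lower level (log2 difference -1.51 ± 0.08, limma adjusted p = 3.55e-07).

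**Figure D2:**
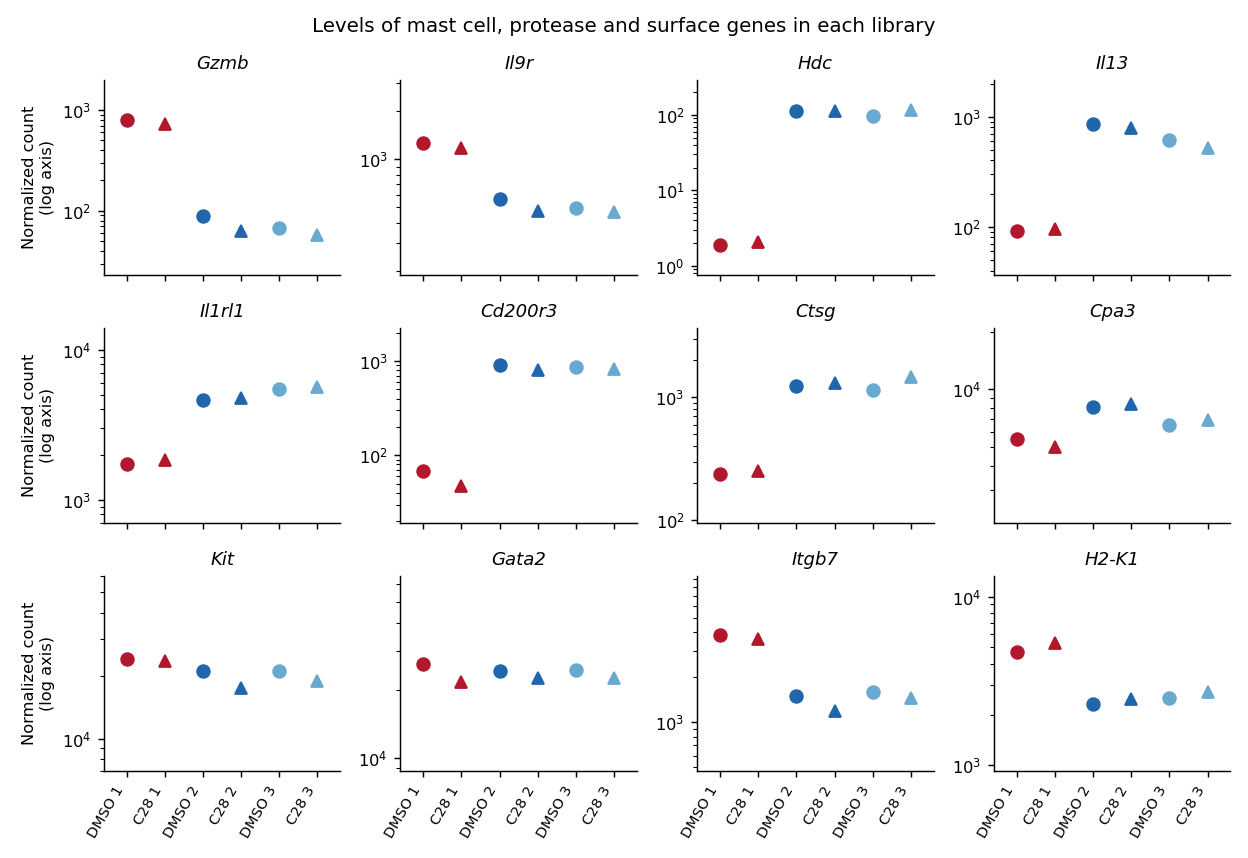
Normalised values of single genes in the 6 RNA libraries, on a log axis, 1 panel per gene (red, replicate 1; dark and light blue, replicates 2 and 3; circles DMSO, triangles C28). Gzmb and Il9r stand above all other libraries in replicate 1 and Hdc, Il13 and Il1rl1 below them, while Gata2 overlaps between the groups.

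Of the mast cell lineage genes Kit, Gata2 and Mitf, only Kit was called, whereas others such as Hdc and Il1rl1 were far apart. Kit held 24074 and 23440 in replicate 1 and 20977, 21088, 17500 and 18844 in the others, a 1.21-fold higher level (log2 difference 0.28 ± 0.05, limma adjusted p = 0.00384). Its call was lost without the C28 library of replicate 1 (limma adjusted p = 0.124). Gata2 held 26194 and 21760 in replicate 1 and from 22639 to 24610 in the others, and the groups overlapped (log2 difference 0.02, 95% interval -0.09 to 0.13). Mitf, the microphthalmia factor needed for mast cell maturation, differed by 0.02 with an interval of -0.13 to 0.17.

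Other transcription factors of mast cells and blood stem cells were mostly lower where they were called. Of 39 tested members of that list, 4 were higher (10.3%, against 9.50% of all tested genes). Another 10 were lower (25.6%, against 10.1%) and 25 not called, with a median of -0.03. The counts were 2 higher and 5 lower without the C28 library of replicate 1, and 1 higher and 7 lower without its DMSO library. Runx1, a factor of early blood development, held 1516 and 1360 in replicate 1 and between 2395 and 2943 in the others (log2 difference -0.87 ± 0.08). Cebpd was 2.16-fold lower, Erg 2.30-fold and Gata1 1.83-fold, and the Erg and Gata1 calls were lost without the C28 library of replicate 1 (limma adjusted p = 0.0608 and 0.0925). Zfpm1, the GATA cofactor FOG1, stood on the other side, at 2131 in the DMSO library of replicate 1 against 1304 and 1225, and at 1223 in the C28 library against 698 and 730. Within each arm replicate 1 was thus higher, and the log2 difference was 0.77 ± 0.06. Ikzf1 and Myb did not pass, with log2 differences of 0.03 and 0.08.

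Mast cell proteases were mostly lower in replicate 1. Of 7 tested proteases 4 were lower (57.1%, against 10.1% of all tested genes) and 1 higher (14.3%, against 9.50%). Their median was -0.50, while 7 of the 13 listed averaged under 1. Without either library of replicate 1, 1 protease was called lower and 0 higher. Ctsg, which encodes cathepsin G, held 237 and 252 in replicate 1 and 1225, 1144, 1309 and 1475 in the others, a 5.27-fold lower level (log2 difference -2.39 ± 0.08, limma adjusted p = 9.22e-09). Cpa3, carboxypeptidase A3, held 5532 and 5016 against 8106, 6514, 8401 and 6951 (log2 difference -0.50 ± 0.09). Its call was lost without either library of replicate 1, with limma adjusted p up to 0.216.

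The remaining proteases were low. The chymase Cma1 held 9.35 and 12.5 in replicate 1 and 26.7 to 31.1 in the others, and Mcpt8, a protease used as a basophil marker, held 56.1 and 41.5 against 78.4 to 112. Mcpt2, a mucosal mast cell protease, went the other way, at 19.6 and 38.4 against 8.56 to 16.1. These 3 calls depended on single libraries, with limma adjusted p up to 0.113 for Cma1, 0.235 for Mcpt8 and 0.322 for Mcpt2. Mcpt genes are near copies of each other, and the assignment of reads between them is uncertain.

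Genes of amine synthesis and the granule matrix did not move one way: 3 of 14 tested members were higher and 4 lower, and 1 was higher and 3 lower without the DMSO library of replicate 1. With all libraries the shares were 21.4% higher and 28.6% lower, against 9.50% and 10.1% of all tested genes. Tph1, the enzyme that commits tryptophan to serotonin, held 1877 and 2111 in replicate 1 and 4401, 2975, 4465 and 2919 in the others (log2 difference -0.86 ± 0.16). Ddc, the next enzyme in that pathway, held 28.0 and 51.9 in replicate 1 against 1.03 to 9.66 (log2 difference 3.13 ± 0.61). Both calls were lost without either library of replicate 1 (limma adjusted p up to 0.168 for Tph1 and 0.193 for Ddc). Ndst2, which sulphates heparin, was 1.32-fold lower and the lysosomal enzyme Gusb 1.39-fold lower. Slc18a2, the vesicular amine transporter, was 1.28-fold higher, and Srgn, the serglycin core protein, was 1.25-fold higher, with a limma adjusted p of 0.0525 without the DMSO library of replicate 1. The granule membrane genes Cd63 and Lamp1 did not pass, with log2 differences of -0.05 and 0.12.

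Genes of the IgE and Fc receptors and their first signalling steps split evenly, with 8 of 23 tested members higher (34.8%) and 7 lower (30.4%). The median was 0.01, and all tested genes had 9.50% higher and 10.1% lower. Without the C28 library of replicate 1 the counts were 2 and 3, and without its DMSO library 6 and 4. Fcgr2b, the inhibitory IgG receptor, held 1098 and 1622 in replicate 1 and 2947, 2912, 3715 and 3897 in the others (log2 difference -1.32 ± 0.06, limma adjusted p = 1.04e-07). Syk, the kinase that binds the receptor's signalling chain, held 862 and 711 against 1149 to 1513, a 1.67-fold lower level. The exchange factor Rasgrp4, which is largely a mast cell gene, was 1.94-fold higher, with 1164 and 737 in replicate 1 against 575, 606, 376 and 401. Fcer1g, the shared signalling chain, was 1.24-fold higher, and its limma adjusted p was 0.0506 without the C28 library of replicate 1. Fcer1a, the IgE-binding chain, had no reads in either group, and Btk and Vav1 did not pass.

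Cytokine and growth factor receptors changed in both directions, 29.4% each way, against 9.50% higher and 10.1% lower of all tested genes. Of 34 tested members 10 were higher and 10 lower. They were 4 and 7 without the C28 library of replicate 1, and 6 and 6 without its DMSO library. Il2ra, the interleukin 2 receptor alpha chain, held 295 and 337 in replicate 1 and 1136 to 1562 in the others (log2 difference -2.04 ± 0.11), whereas Il2rg, the common gamma chain, held 526 and 572 against 175 to 200 (1.54 ± 0.10). Chains of 1 receptor family thus lay on opposite sides. Il1r1, the interleukin 1 receptor, was 5.45-fold lower, and Il6ra, the interleukin 6 receptor, held 15.9 and 15.6 against 68.9 to 77.1. Crlf2, the thymic stromal lymphopoietin receptor chain, was 2.16-fold higher, with 510 and 569 against 226 to 281. Il3ra, the interleukin 3 receptor alpha chain, was 2.26-fold higher, and Tnfrsf9, also called 4-1BB, 2.54-fold higher, with limma adjusted p of 0.0770 and 0.0559 without the C28 library of replicate 1. The shared beta chains Csf2rb and Csf2rb2 did not pass, with log2 differences of -0.14 and -0.08.

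Of 32 tested cytokine and chemokine genes, 13 were lower (40.6%), 3 higher (9.38%) and 16 not called, with a median of -0.70. All tested genes had 10.1% lower and 9.50% higher. The lower count was 9 without the C28 library of replicate 1 and 12 without its DMSO library, and the higher count was 0 without either of them and 1 without the DMSO library of replicate 2. Tnfsf4, the costimulatory ligand OX40L, had 3 reads in the 2 libraries of replicate 1 and 134 in the other 4, a rate 22.6-fold lower (95% exact counting interval 7.57 to 111). Il4, which encodes interleukin 4 and lies near Il13 on chromosome 11, held 165 and 213 against 395, 291, 444 and 333. Its log2 difference of -0.94 ± 0.15 was smaller in size than that of Il13, and its call was lost without either library of replicate 1 (limma adjusted p up to 0.0759). Csf1, the macrophage growth factor, was 2.05-fold lower, Osm, oncostatin M, 1.56-fold lower, and the growth factor Areg held 14 and 22.8 against 57.4 to 85.8. Cxcl10, an interferon-induced chemokine, was 5.33-fold lower. Il6 was 1.41-fold lower, with a limma adjusted p of 0.0588 without the C28 library of replicate 1. Ccl17, a chemokine that binds Ccr4, was on the higher side at 14 and 11.4 against 0.957 to 3.08, and its call was lost without either library of replicate 1 (limma adjusted p up to 0.163). Tgfb1 and Lif did not pass.

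Surface receptors showed some of the clearest separations. Cd200r1, an inhibitory receptor of mast cells and macrophages, held 28.0 and 51.9 in replicate 1 and 1044, 1016, 1185 and 1081 in the others. Replicate 1 was 27.1-fold lower (log2 difference -4.79 ± 0.14, limma adjusted p = 3.52e-09). Cd200r3, an activating relative found on mast cells and basophils, held 68.2 and 47.7 against 902, 853, 796 and 817 (log2 difference -3.86 ± 0.10). Both genes were even among the 4 other libraries. Because of Cd200r3, the summed basophil markers held 89.2 to 124 in replicate 1 and 896 to 1014 in the others, while 2 of the 4 basophil markers, Prss34 and Fcer1a, had no reads. The part of basophil-like cells in the other results was not tested.

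Over the list of adhesion and surface genes, 8 of 42 tested members were higher and 16 lower, against 4 and 10 without the C28 library of replicate 1 and 5 and 13 without its DMSO library. With all libraries the shares were 19% higher and 38.1% lower, against 9.50% and 10.1% of all tested genes. Genes with a mean of at least 50 had 15.3% and 15.1%. The integrin chain Itgb7, which pairs with alpha 4 and alpha E on mast cell progenitors, held 3807 and 3576 in replicate 1 and 1494, 1581, 1182 and 1454 in the others (log2 difference 1.38 ± 0.08). Itgb2, the leukocyte integrin beta chain, held 1472 and 1411 against 711 to 803, and was 1.92-fold higher. Spn (CD43) was 2.10-fold lower, Cd274 (PD-L1) 2.19-fold lower, Slamf1 (CD150) 3.83-fold lower and Ly6a (Sca-1) 5.64-fold lower. Itgb1, Itga4 and Itga6 did not pass, with log2 differences from -0.11 to 0.07.

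Receptors for chemokines, complement and peptides held 4 higher (18.2%, against 9.50% of all tested genes) and 8 lower (36.4%, against 10.1%) of 22 tested members. The lower count was 3 without either library of replicate 1, 5 without the C28 library of replicate 2 and 3 without that of replicate 3, and the higher count fell to 2 without the C28 library of replicate 1. Adora3, the adenosine receptor through which adenosine enhances mast cell degranulation, held 99.1 and 58.1 in replicate 1 and 774, 669, 648 and 545 in the others (log2 difference -3.09 ± 0.13). The complement receptor C3ar1 was 2.33-fold lower. Ccr8, a chemokine receptor of type 2 lymphocytes, held 71.1 and 39.4 against 3.22 to 8.61 (log2 difference 2.93 ± 0.40). The thrombin receptor F2r did not pass, with values of 13331 and 14966 against 13942 to 14952.

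Lipid mediator genes held 5 higher and 4 lower of 23 tested members, and the higher count was 1 without the C28 library of replicate 1 and 2 without its DMSO library, and also 2 without the DMSO or the C28 library of replicate 2. With all libraries the shares were 21.7% higher and 17.4% lower, against 9.50% and 10.1% of all tested genes. Genes with a mean of at least 50 had 15.3% and 15.1%, so the list lay near that level. Alox15, which oxygenates arachidonic acid, held 5.61 and 7.26 in replicate 1 and 40.8 to 59.9 in the others. S1pr1, the sphingosine 1-phosphate receptor, held 14 and 3.11 against 88.5, 102, 35.4 and 58.6 (log2 difference -3.09 ± 0.31), with the C28 library lower than the DMSO library in every replicate number. Ptges, a prostaglandin E synthase, was 3.98-fold lower, with a limma adjusted p of 0.0568 without the DMSO library of replicate 1. Ptgs2, the inducible cyclooxygenase, held 1166 and 2201 against 1631, 2689, 2029 and 3686, and it overlapped between the groups and did not pass.

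Several of the genes furthest apart encode proteins of no single pathway. Among called genes with a mean of at least 20 and no overlap between the groups, the 15 with the largest positive difference included Pkd1l1, a polycystin relative, at 169 and 232 in replicate 1 and 0 to 2.87 in the others, and P2rx3, an ATP-gated channel, at 57.0 and 73.7 against 0.957 to 6.44. The group also held Gpr174, a lysophosphatidylserine receptor, at 320 and 251 against 14.4 to 27.9, and the glutamate receptor Grm5. Mrgpra9, Spns2, a sphingosine 1-phosphate exporter, and I730030J21Rik were also in it. Neurl3, a ubiquitin ligase, differed at high levels, with 2990 and 2052 in replicate 1 and 482, 450, 226 and 321 in the others (log2 difference 2.80 ± 0.12). Cox6a2, Pdzph1, Lsamp and AB124611 belonged to it too, as did Gzmb and Ccr8. The calls of Cox6a2, Pdzph1, Lsamp and AB124611 were lost without the C28 library of replicate 1, with limma adjusted p of up to 0.157 over the libraries left out. The fitted difference of Pkd1l1 was 6.77, and 5.67 without the C28 library of replicate 1.

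By the same rule, the 15 genes with the largest negative difference included Xlr, an X-linked lymphocyte gene, with 1 read in replicate 1 and 426 in the other 4 libraries, a rate 216-fold lower (95% exact counting interval 38.5 to 8536). Igsf23, an immunoglobulin superfamily gene, had 5 reads against 598. Camk2a, a calcium and calmodulin dependent kinase, held 15.9 and 11.4 in replicate 1 and 399 to 431 in the others (log2 difference -4.85 ± 0.14). Plcb2, a phospholipase C that acts downstream of G protein coupled receptors, held 6.54 and 18.7 against 268 to 333. Dnmt3l, a cofactor of DNA methyltransferases known from germ cells, held 0.935 and 9.34 against 72.7 to 122. Leaving out 1 library of replicate 1 moved the fitted differences of these 2 genes from -4.60 to -3.84 for Plcb2 and from -4.44 to -5.38 for Dnmt3l. Mmp8, neutrophil collagenase, held 16.8 and 10.4 against 212 to 302, and Afap1l1, an actin filament associated protein, had 8 reads against 418. Hdc, Cd200r1, Cd200r3, Nfam1, Tnfsf4, Il33, Cxcl5 and Il1a were the others. A mean of at least 20 over all libraries takes a higher level in the libraries of replicate 1 than in the more numerous others. The rule was thus stricter on the higher side.

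Few genes were on in 1 group and off in the other. Nfam1, an ITAM-bearing receptor, Mmp12, macrophage elastase, and Fam234b had 0 reads in replicate 1 and at least 10 in each other library. Their summed reads of 177, 112 and 49 in replicates 2 and 3 put replicate 1 at least 29.9-fold, 18.9-fold and 8.27-fold lower, with 3 reads allowed over the group. St18, a zinc finger factor, and 4932431P20Rik showed the reverse, with 27 and 54 reads in replicate 1 and 0 in the other 4 libraries. That puts them at least 17.8-fold and 35.6-fold higher in replicate 1.

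**Figure D3:**
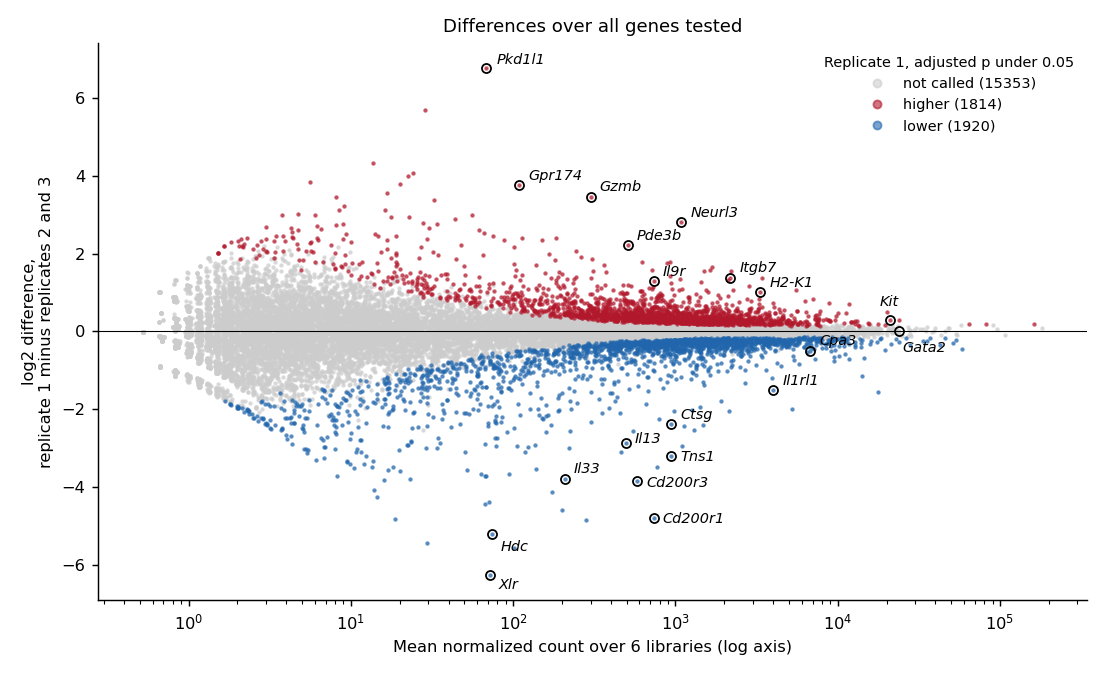
Log2 difference of each tested gene, replicate 1 minus replicates 2 and 3, against its mean normalised count over 6 libraries (log axis); red and blue points passed the limma threshold on the higher and lower side. Circles mark labelled genes, and the lower side holds more genes past 2-fold (500) than the higher side (285). The filter of 3 libraries admits genes read only in replicates 2 and 3 but not genes read only in replicate 1. Without a filter 324 genes were at least 2-fold higher and 459 lower.

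Antigen presentation by major histocompatibility complex class I was the list with the highest share of higher members, 73.3% against 9.50% of all tested genes. Of 15 tested members 11 were higher and 1 lower, and the median was 0.82. H2-K1 held 4717 and 5330 in replicate 1 and 2312, 2505, 2462 and 2717 in the others, a 2.01-fold higher level (log2 difference 1.01 ± 0.06). H2-D1 held 7889 and 9276 against 3780 to 4326. The peptide transporter gene Tap1 was 1.88-fold higher, the light chain gene B2m 1.44-fold and the class I transactivator gene Nlrc5 1.94-fold. H2-Q7 was 2.52-fold higher, although reads of the H2-Q genes may be shared between near copies. H2-T23, which encodes the nonclassical molecule Qa-1, went the other way, at 534 and 554 against 943 to 1082 (log2 difference -0.90 ± 0.07). The immunoproteasome genes Psmb8 and Psmb10 did not pass, with log2 differences of 0.05 and -0.02.

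Of 30 tested interferon response genes 3 were higher (10%, against 9.50% of all tested genes) and 8 lower (26.7%, against 10.1%), with a median of -0.20. Replicates 2 and 3 were also apart on this list, with 24 of the 30 higher in replicate 3. The median of replicate 3 minus replicate 2 was 0.30, larger in size than that of replicate 1. The lower count was 1 without the C28 library of replicate 1 and 2 without its DMSO library, and it was 4 without the DMSO library of replicate 2 or the C28 library of replicate 3. The higher count was 0 without the C28 library of replicate 1. Ifit1, an interferon-induced RNA sensor, held 83.2 and 42.5 in replicate 1 and 226, 220, 235 and 334 in the others. Its log2 difference of -2.05 ± 0.24 became -2.69 without the DMSO library of replicate 1. Stat2 and Irf9, components of the type I interferon factor, did not pass.

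Defining genes of lymphocytes were low or absent, and other genes of these cells were not. The summed T and NK cell markers held 112 to 150 in replicate 1 and 187 to 267 in the others, Cd3g, Trbc1 and Ncr1 had no reads, and 6 of the 9 averaged under 1. In a longer list of 33 cytotoxic granule and T or NK cell genes 20 averaged under 1, while Tcrg-C1, a constant region of the gamma receptor chain, held 195 to 385 and overlapped between the groups. Of its tested members 14.3% were called higher and 21.4% lower, against 9.50% and 10.1% of all tested genes. Cd247, a signalling chain of the T cell receptor, held 145 and 209 in replicate 1 against 228 to 287, and its call was lost without either library of replicate 1 (limma adjusted p up to 0.201). Of 14 tested members of that list 2 were higher and 3 lower, and 1 was higher and none lower without the C28 library of replicate 1. Both counts were 1 without its DMSO library or the C28 library of replicate 3, and the higher count was 1 without a library of replicate 2. Prf1, the pore-forming protein perforin, was 1.81-fold lower in replicate 1, against the direction of Gzmb, with a limma adjusted p of 0.0894 without its C28 library. Of 25 tested T cell and innate lymphocyte transcription factors 7 were higher and 4 lower, with 3 and 0 without the C28 library of replicate 1. The lower count was 1 without the DMSO library of replicate 1 and 2 without a library of replicate 3. With all libraries these factors had 28% higher and 16% lower, against 9.50% and 10.1% of all tested genes. Zbtb16, the factor PLZF of innate-like lymphocytes, is also in the germline list. It held 74.8 and 39.4 in replicate 1 against 7.20 to 18.1 (log2 difference 2.17 ± 0.32), and Tox held 396 and 359 against 128 to 194 (1.25 ± 0.16).

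Macrophage genes that passed were all lower, 5 of 15 tested, and 3 without the C28 library of replicate 1. With all libraries the lower share was 33.3%, against 10.1% of all tested genes. Adgre1, which encodes F4/80, held 766 and 745 in replicate 1 and 1833, 1632, 1650 and 1465 in the others (log2 difference -1.12 ± 0.07). The lysosomal protein Cd68 was 3.04-fold lower and the adaptor Tyrobp 3.73-fold lower. Lyz2 and Cd74 were also lower, and their calls were lost without the C28 library of replicate 1, with limma adjusted p of up to 0.122 and 0.0703 over the libraries left out. That library also moved the Cd74 difference, which was -1.74 with it and -1.14 without. C1qa, a defining macrophage gene, had no reads. The summed macrophage markers, mostly Adgre1, held 759 to 781 in replicate 1 and 1489 to 1863 in the others, and the part of such cells in the other results was not tested.

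Genes of fibroblasts and feeder cells stood lower in replicate 1, and replicates 2 and 3 were also apart on them. Of 23 tested members 14 were lower (60.9%, against 10.1% of all tested genes) and 1 higher (4.35%, against 9.50%), with a median of -0.78. The median difference of replicate 3 minus replicate 2 was 0.48, against 0.00 over all tested genes. The lower count was 5 without the C28 library of replicate 1 and 3 without its DMSO library, and the higher count was 0 without either of them or without the DMSO library of replicate 2. The summed fibroblast markers held 1049 and 1105 in replicate 1, 1876 and 1646 in replicate 2 and 2592 and 2713 in replicate 3, and the part of such cells in the other results was not tested. Dcn, the matrix proteoglycan decorin, held 829 and 873 in replicate 1, 1270 and 1217 in replicate 2 and 1811 and 2115 in replicate 3. Timp1, a metalloproteinase inhibitor, held 662 and 760, then 1954 and 1988, then 2893 and 3137 (log2 difference of replicate 1 to both others -1.78 ± 0.17). Pdgfrb and Thy1 were 4.68-fold and 5.32-fold lower with replicates 2 and 3 within 0.11 and 0.22 of each other on the log2 scale. The calls of Dcn, Fn1, Col1a1 and Col1a2 were lost without the DMSO library of replicate 1, with limma adjusted p of up to 0.213 over the libraries left out.

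Some of the lower secreted proteins were also higher in replicate 3 than in replicate 2. Il33, the alarmin that binds ST2, held 15 and 24.9 in replicate 1, 191 and 187 in replicate 2 and 381 and 452 in replicate 3. Il1a held 8.41 and 4.15, then 80.9 and 50.4, then 145 and 114. Cxcl5, a neutrophil chemokine, and Serpinb2, a protease inhibitor, were also higher in replicate 3 than in replicate 2 in both arms, by 1.44 and 1.45 on the log2 scale, and their calls were lost without the C28 library of replicate 1 (limma adjusted p = 0.0625 and 0.0853). Mast cell genes varied between replicates 3 and 2 as well: Hdc, Cd200r1, Cd200r3 and Ctsg, picked after their values were seen, differed by at most 0.09 on the log2 scale in either direction, Il1rl1 by 0.24, Gzmb by -0.27, Cpa3 by -0.29, Il13 by -0.54 and Tph1 by -0.59. Of the 500 genes at least 2-fold lower, 85 (17.0%) were at least 1.5 times higher in replicate 3 than in replicate 2, as were 34 (11.9%) of the 285 at least 2-fold higher, against 9.65% of all tested genes.

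**Figure D4:**
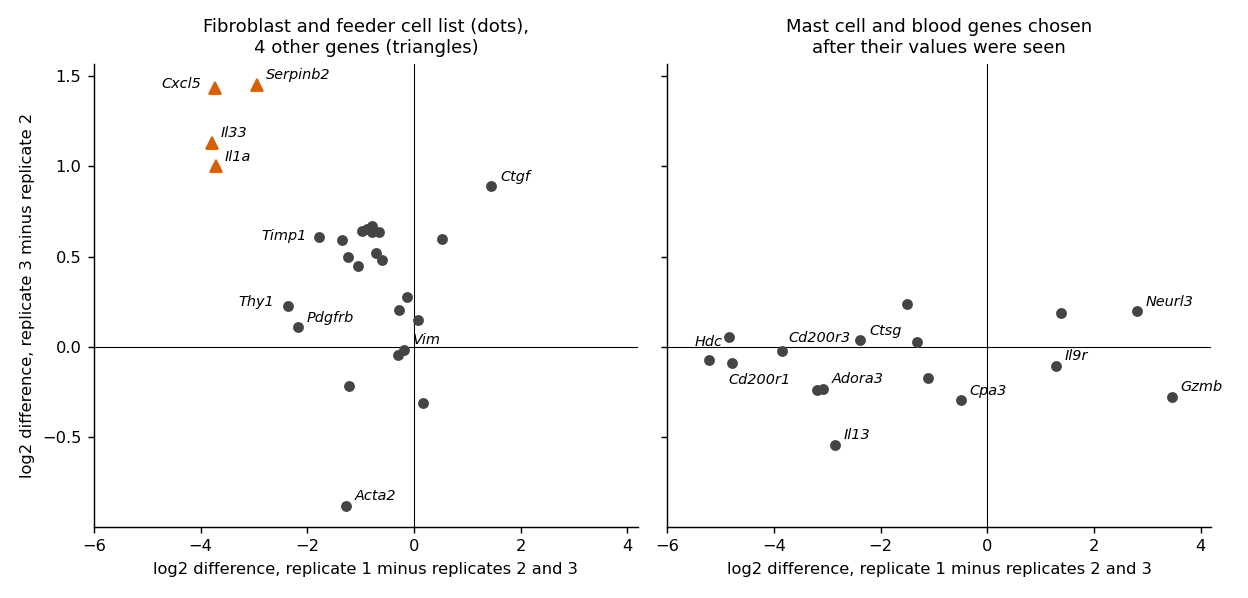
Log2 difference of replicate 3 minus replicate 2, averaged over both arms, against that of replicate 1 minus replicates 2 and 3. Left, the tested fibroblast and feeder cell genes (dots) with Il33, Il1a, Cxcl5 and Serpinb2 (triangles); right, mast cell and blood genes chosen after their values were seen. Most dots on the left lie above 0 on the vertical axis, while Hdc, Cd200r1, Cd200r3 and Ctsg on the right lie within 0.09 of it and Il13 at -0.54.

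Genes of other blood lineages were mostly low. The summed neutrophil markers held at most 10.3, with Elane, S100a9 and Ltf at no reads, although the neutrophil collagenase Mmp8 was 18.5-fold lower in replicate 1. Cxcr2, a chemokine receptor of neutrophils and mast cells, was well above these, at 2061 and 2492 in replicate 1 and 1570 to 1838 in the others (log2 difference 0.42, limma adjusted p = 0.000384). Eosinophil and B cell markers summed to at most 6.44 and 6.66. Itga2b and Itgb3, the integrin chains that platelets and mast cells share, were 1.32-fold and 1.82-fold higher in replicate 1, with Itgb3 at 2684 and 2724 against 1262 to 1676. Xist had 1 read over all 6 libraries, and the Y-linked genes Ddx3y, Eif2s3y, Kdm5d and Uty had none.

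Of 30 tested glycolysis and hypoxia genes, 15 were lower (50%), 2 higher (6.67%) and 13 not called, with a median of -0.21. All tested genes had 10.1% lower and 9.50% higher. The lower count was 9 and the higher count 1 without the C28 library of replicate 1, against 12 and 1 without its DMSO library. Pfkp, the platelet isoform of phosphofructokinase, held 6323 and 6604 in replicate 1 and 10143, 10649, 11149 and 11751 in the others (log2 difference -0.76 ± 0.05). Ndrg1 held 785 and 1056 against 1714 to 2346, a 2.15-fold lower level. The glucose transporter Slc2a1 was 1.52-fold lower and the lactate exporter Slc16a3 1.53-fold lower. Ddit4, an inhibitor of mTOR signalling, was among the higher members at 860 and 907 against 355 to 673, with a limma adjusted p of 0.0545 without the DMSO library of replicate 1. Eno1, Aldoa and Slc2a3 did not pass, with log2 differences from -0.05 to 0.09.

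Cell cycle lists had small median differences, although the share of S phase genes called lower was above that of all genes at their level. Of 23 mitosis genes 4 were higher and none lower, and of 25 S phase genes 9 were lower and 2 higher, with medians of 0.06 and -0.13. Mitosis thus had 17.4% of its members higher and S phase 36.0% lower and 8% higher, against 15.3% higher and 15.1% lower among all genes with a mean of at least 50. Without the C28 library of replicate 1 these counts were 1 for mitosis and 1 lower and 0 higher for S phase. Without its DMSO library they were 1 for mitosis and 11 lower and 0 higher for S phase. Without a library of replicate 2 or the DMSO library of replicate 3 2 mitosis genes were called higher, and S phase had 6 lower without a C28 library of replicate 2 or 3. Nusap1, a spindle protein, was 1.60-fold higher, and Rrm2, a ribonucleotide reductase subunit, held 6250 and 5374 against 7431 to 8536 and was 1.36-fold lower. Ccnd1, which encodes cyclin D1, was 1.63-fold lower, while Ccnd2, cyclin D2, was 1.33-fold higher, with a limma adjusted p of 0.105 without the C28 library of replicate 1. Top2a and Mcm3 did not pass. Among 24 ribosomal protein genes 1 was higher (4.17%) and none lower, against the same 15.3% and 15.1%. With any 1 library left out 0 were called.

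Feedback genes of cytokine and growth factor signalling went both ways. The JAK-STAT list had 12.5% higher and 43.8% lower, against 9.50% and 10.1% of all tested genes. The immediate early list had 32.3% and 22.6%, with a median of 0.15. Genes with a mean of at least 50 had 15.3% and 15.1%. In the list of JAK-STAT feedback genes and STAT5 targets, 2 of 16 were higher and 7 lower, and 1 was higher and 5 lower without the C28 library of replicate 1. Socs2, a feedback inhibitor induced by STAT5, held 2994 and 2676 in replicate 1 and 4919 to 5678 in the others (log2 difference -0.89 ± 0.05), and Socs3 was 1.76-fold lower. Among 31 immediate early and MAPK feedback genes 10 were higher and 7 lower, against 1 and 4 without the C28 library of replicate 1 and 5 and 4 without its DMSO library. The higher count was 6 without the C28 library of replicate 2. Egr1, an early growth response factor, held 926 and 1431 against 283, 357, 271 and 456 (log2 difference 1.78 ± 0.18), and the phosphatase Dusp1 held 35.5 and 36.3 against 89.9 to 128 (-1.55 ± 0.18).

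Metabolic and stress lists split. Sterol and fatty acid synthesis, with Acaca 1.58-fold lower and Nsdhl 1.54-fold lower, held 23.3% higher and 36.7% lower, against 9.50% and 10.1% of all tested genes. These were 7 higher and 11 lower of 30 tested members. Those counts were 1 and 3 without the C28 library of replicate 1, and 4 and 7 without the C28 library of replicate 3. Of 25 tested ATF4 targets and amino acid supply genes, 4 were higher (16%, against 9.50% of all tested genes) and 6 lower (24%, against 10.1%). Among them were Pycr1 of proline synthesis, 1.93-fold higher, and the cystine carrier Slc7a11. Slc7a11 held 905 in the DMSO library of replicate 1 against 1941 and 2028, and 3673 in the C28 library against 6593 and 6590, so it was lower in both arms. That list had 2 higher and 3 lower without the C28 library of replicate 1, and 1 higher and 3 lower without its DMSO library. Endoplasmic reticulum chaperone genes held 5 higher and none lower of 18, with the secretory regulator Xbp1 1.54-fold higher, and 2 higher without the C28 library of replicate 1. With all libraries the chaperone share was 27.8% higher, against 9.50% of all tested genes. Zinc and metallothionein genes had 28.6% higher and 57.1% lower, against 9.50% and 10.1% of all tested genes. Among 7 zinc and metallothionein genes, the importers Slc39a4 and Slc39a10 went opposite ways, 2.31-fold higher and 2.03-fold lower. Of the 7, 2 were higher and 4 lower, and 1 each without the C28 library of replicate 1.

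**Figure D5:**
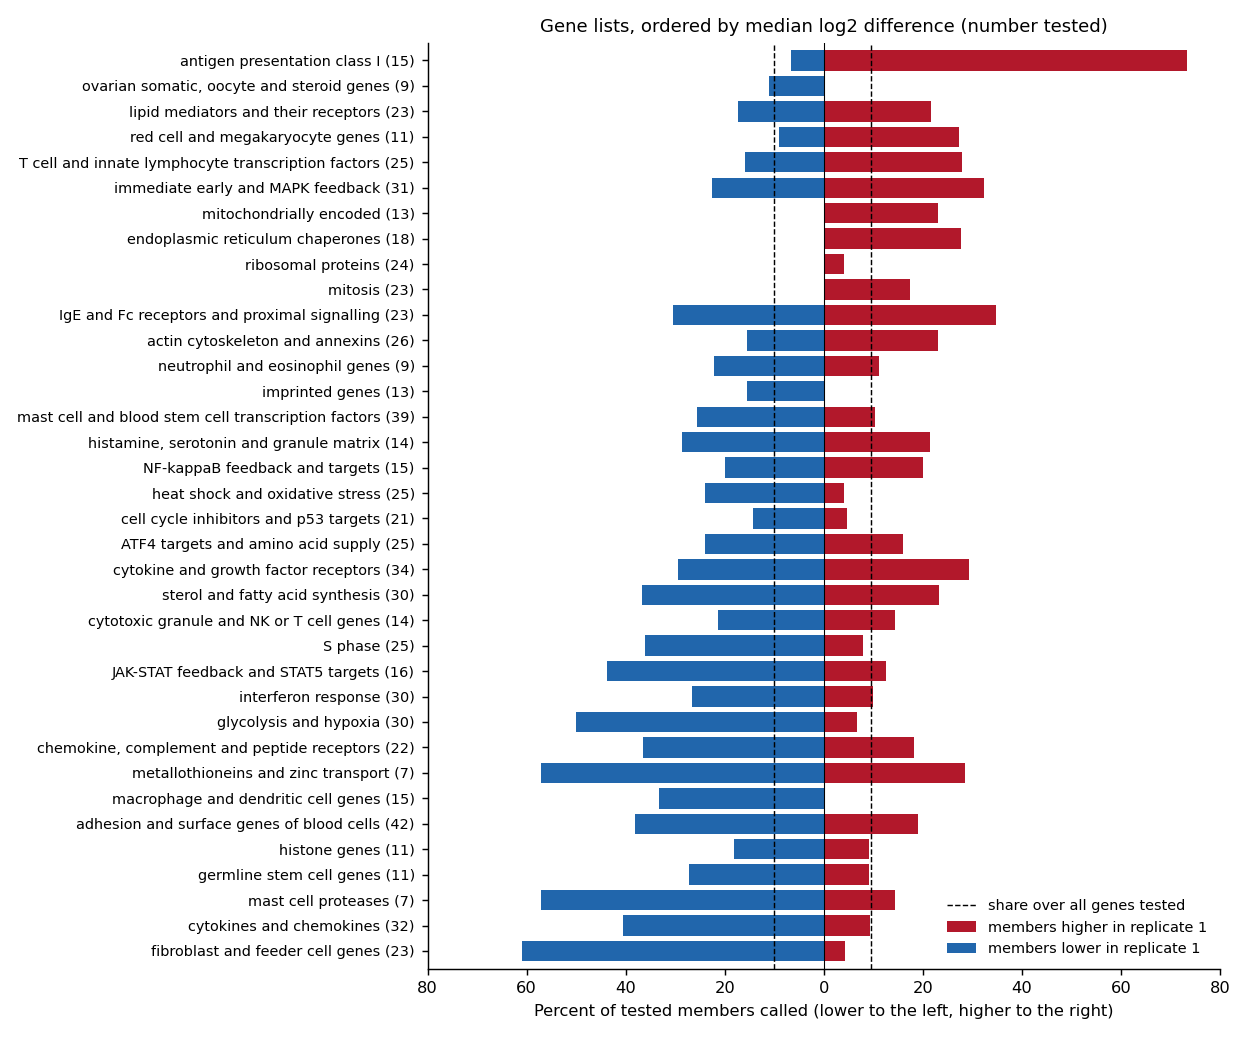
Percent of tested members called higher (red, right) and lower (blue, left) in replicate 1 for each gene list with at least 7 tested members (number in brackets), in order of the list's median log2 difference; dashed lines show the share over all tested genes. Class I antigen presentation has 73.3% of its members higher, and the fibroblast list 60.9% of its members lower.

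The difference between replicate 1 and the others was tested for dependence on treatment. No gene passed for the product of replicate 1 and treatment in limma (0 of 19087, or 0.00%), with 1283 genes at an unadjusted p under 0.05. The count was 5 with a filter at 10 and 1541 with no filter on low values, and on the recovered reads edgeR called 1 gene and DESeq2 17. With 1 library of replicate 1 in each arm, this test has little to estimate the spread from.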

How the data were processed

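RNA was measured in 6 mouse libraries of 8 samples, and the sample titles gave each library's group and replicate number. The H3K27ac libraries carry no replicate number and were not used here. The deposited gene table is on a signal scale. Its values are read counts over a library-wide factor set by the authors, as 100% of them equal a whole number of reads to within 0.01. Per the submitters' processing notes, mm9 was the build, and Bowtie2 and Cufflinks 2.2.1 were used. The counting tool and its use of strand are not named in the sources here, and overlapping genes may share reads.

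The table named 24187 of 54232 rows, and 29950 more were named by their Ensembl identifier. The 19087 genes that reached a value of 1 in 3 or more libraries were fitted with limma 3.58.1 in R 4.3.3 on log2(value + 1), with treatment as covariate, an intensity trend and Benjamini-Hochberg adjustment (threshold 0.05); fold changes of low genes are understated on that scale. Folds without a log2 sign are ratios of group means, over 2 and 4 libraries. On the recovered reads, edgeR 4.0.16 called 3804 genes and DESeq2 1.42.0 called 3247, against 3734 in limma. The scripts were tested on simulated data. Exact intervals cover counting error only, and a count of 0 was read against 3 reads over the group.

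The members, the marker genes and the gene lists were chosen with earlier results of these data known. Named genes are the 5 markers, the 15 largest differences each way among called genes with a mean of at least 20 and no overlap between groups, up to 5 called and 3 uncalled members of each of 39 lists, and proteases with a mean of at least 5; 2 of the genes so chosen are not reported here. The following were named after their values were seen: Kit, Mitf, Serpinb2, Tns1, Mmp12, Itgb7, Itgb2, Il3ra, Crlf2, Tnfrsf9, Il18r1, Il18rap, Il1rl2, Il1rap, B2m, Tap1, Nlrc5, H2-T23, Cxcl10, Areg, Il4, Csf1, Il6, Srgn, Slc18a2, Fcer1g, Col1a2, Fn1, Dcn, C3ar1, Slamf1, Spn, Cd274, Ly6a, Slc2a1, Ccnd2 and, for their read counts, Fam234b, St18 and 4932431P20Rik. Alternatives were other pseudocounts, filters, scalings, tools and replicate blocks, single arms, and leaving out each library or replicate number.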

Additional observations from a re-analysis of the deposited data

Results flagged for a closer look

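In 7 of 326 named genes, 1 of the 4 libraries of replicates 2 and 3 stood far from the other 3, with a gap to its nearest neighbour, as a share of the range of the 4, above Dixon's 95% critical value for 4 samples. Chance flags about 1 in 20 groups where all 4 values come from 1 population, a larger share than 7 of 326. Each group here mixes DMSO and C28 libraries, so that rate need not hold. The C28 library of replicate 2 was the one apart for Gzmm (gap share 0.907) and Mcl1 (0.835). The C28 library of replicate 3 was apart for Ifit1 (0.869) and Nsdhl (0.895). The DMSO library of replicate 2 was apart for Tpx2 (0.878) and Hspa5 (0.836), and the DMSO library of replicate 3 for Psmb8 (0.860). Of these, Gzmm held 34.3 in the library apart and 13.4 to 15.3 in the other 3, and Ifit1 held 334 against 220 to 235.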

How the results depend on the processing

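The count of differing genes (3734) stayed within 1.5 times under both other pseudocounts, filters and tools and TMM scaling, and was 4032 with a replicate block of 3 levels and 2699 with a replicate block of 1 mean per replicate number, of which 2669 were among the 3734. Leaving out 1 library or 1 replicate number gave 961 to 3138 genes, and 313 to 701 at least 2-fold where all libraries gave 785; the DMSO or C28 libraries alone gave 0 for both counts. A pseudocount of 8 gave 496 genes at least 2-fold. The interaction with treatment, called at 0 genes, was called at 1 with a pseudocount of 8, 1541 without a filter, 5 with a filter at 10, 1 in edgeR and 17 in DESeq2; the cause was not tested. Of 216 called named genes, 193 kept their call with 1 mean per replicate number and 109 in every alternative other than the single arms, and 0 of the named genes changed direction. Depth limits low genes: in the 36364522 reads of replicate 1, a gene at 0 can hold up to 3 reads.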

Other observations

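Neighbouring receptor genes of the interleukin 1 family on chromosome 1 were all lower in replicate 1. Il1r1 held 40.2 and 45.7 in replicate 1 and 200 to 276 in the other 4 libraries, and Il1rl2, the interleukin 36 receptor, held 27.1 and 14.5 against 101 to 186. Il1rl1 was 2.85-fold lower. Il18r1, the interleukin 18 receptor alpha chain, was 2.28-fold lower at 42.1 and 50.8 against 94.4 to 119. Il18rap, its partner chain, was closest, at 7665 and 7927 against 8996 to 9598 (log2 difference -0.27 ± 0.05), and its call was lost without the DMSO library of replicate 1 or without replicate 3 (limma adjusted p up to 0.0637). The decoy receptor Il1r2, in the same cluster, was too low to be tested, with values from 0 to 8.61. Il1rap, the shared coreceptor on chromosome 16, held 20.6 and 16.6 against at most 48.3, and its call was lost in most alternatives (limma adjusted p up to 0.333). These genes were singled out after their values were seen.

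At the scale of whole chromosomes the differing genes were spread out. Genes at least 2-fold apart nevertheless had a like neighbour more often than all placed genes. Among genes with a mean of at least 50, the median log2 difference per chromosome lay between -0.02 and 0.05, and the share called lay between 24.8% on chromosome 8 and 35.1% on chromosome 6. Among 430 placed genes at least 2-fold lower, 68 (15.8%) had such a gene as a next neighbour, against 5.82% of all placed genes. Among 235 at least 2-fold higher it was 19 (8.09%), against 3.22%. Tns1, an actin-binding adhesion protein, was among the genes most evenly apart, with 135 and 156 in replicate 1 and 1200 to 1518 in the others.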
